A study of Mus musculus with 56 samples.

Results

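The cell cycle and proliferation genes described here are 40 genes of the mouse liver gene table, chosen by name: markers and kinases of mitosis, S-phase genes, G1 cyclins and their kinases, inhibitors of these kinases, and growth-arrest genes. They are 40 of 25415 rows, matched to mouse symbols by the GENCODE annotation, and all 40 passed the filter on low values that kept 19238 genes. The livers came from 56 female C57BL/6J mice, 9 weeks old, kept under 12 h of light per day and fed ad libitum for 7 days before 7 further days on 1 of the regimens. Food was offered only by day in daytime-restricted feeding (DRF) and only by night in nighttime-restricted feeding (NRF). Sampling was at ZT0, 4, 8, 12, 16, 20 and 24 (zeitgeber time, in hours from the start of light), and each of the 14 groups held 4 animals. Strain, sex and light cycle were the same in every group, and no freely fed group was compared. The comparison asks which diurnal profiles moved with the meal and which stayed with the clock time.

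The cell cycle runs from G1 through DNA replication (S phase) and G2 to mitosis. D-type cyclins with Cdk4 and Cdk6 carry cells through G1, E-type cyclins with Cdk2 start S phase, the MCM complex unwinds DNA at replication origins, and cyclins A and B with Cdk1 drive mitosis. Cdkn1a (p21), Cdkn1b (p27) and Cdkn2c (p18) inhibit these kinases. Hepatocytes of the adult liver are largely quiescent, and the circadian clock is known to gate cell-cycle genes such as Wee1.

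The deposited values are not linear in counts, so each was converted to a scaled count, the rebuilt count over a library factor, which is close to a share of that library's total. It is not corrected for length, so it compares livers, not genes. Rebuilt totals ran from 304 M to 682 M counts per library, and what 1 rebuilt count stands for is not given in the sources used here. The lowest rebuilt count of any member was 10, for Ccnb1. Within a group, livers correlated across 13706 genes with Pearson's r between 0.952 and 0.983. The summed hepatocyte markers (4 of 5 rebuilt) lay between 93945 and 150674 scaled counts and no rebuilt marker of the 8 cell types examined was at 0 in any library, so other liver cells were present. In these bulk samples, fewer cells of a type and less RNA per cell cannot be told apart.

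A 24-h cosine was fitted within each regimen, and all adjusted p-values are from limma with Benjamini-Hochberg adjustment over the 19238 genes, called under 0.05. Amplitude is the fitted peak-to-trough difference divided by 2, on the log2 scale of scaled count + 0.1, given ± SE. Each pair of profiles was compared in clock time and again in time since feeding began, which sets the regimens 12 h apart. The highest and lowest groups of a member were picked by their means from these same livers. That choice favours groups that do not overlap, and overlap was not counted over all genes. Statements on overlap therefore describe the livers and are not tests.

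Promoter sequence is shown for a pair of mitotic members and a pair of MCM subunits, whose profiles behaved differently between the regimens. RefSeq promoter windows of 300 bases (most of it upstream of the start of the gene, build GRCm38.p6) were found for 33 of the 40 members, and not for Ccna2, Ccnd1, Ccnd2, Ccne2, Mcm4, Aurkb and Foxm1. Each window was searched on both strands for TTTGAA, the letters of the cell cycle genes homology region (CHR), and for TTTCCCGC or TTTGGCGC, letters of an E2F site. None of the strings searched contains another. Ccnb2 and Plk1 carry CHR letters and peaked in the light phase in both regimens. Their profiles differed in feeding time (limma, adjusted p = 0.000148 and 0.000129) and were not called in clock time. Mcm5 and Mcm6 carry E2F letters and had profiles that differed between the regimens in both clock time and feeding time. Other carriers of these letters did not all behave alike. With CHR letters, Mcm2 and E2f8 differed in clock time (adjusted p = 5.38e-07 and 0.00259), unlike the mitotic carriers. With E2F letters, Mcm3 differed in both comparisons, Mcm7 in clock time only and Cdk2 in neither (adjusted p = 0.224 and 0.515). The capitals mark the matched letters.
Ccnb2, chr9:70421505-70421804, minus strand: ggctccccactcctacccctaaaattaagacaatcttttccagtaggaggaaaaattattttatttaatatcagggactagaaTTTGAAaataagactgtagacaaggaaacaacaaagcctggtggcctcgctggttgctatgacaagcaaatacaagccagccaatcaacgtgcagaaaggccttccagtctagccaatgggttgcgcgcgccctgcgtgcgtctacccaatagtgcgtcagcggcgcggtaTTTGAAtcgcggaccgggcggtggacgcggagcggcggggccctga
Plk1, chr7:122159185-122159484, plus strand: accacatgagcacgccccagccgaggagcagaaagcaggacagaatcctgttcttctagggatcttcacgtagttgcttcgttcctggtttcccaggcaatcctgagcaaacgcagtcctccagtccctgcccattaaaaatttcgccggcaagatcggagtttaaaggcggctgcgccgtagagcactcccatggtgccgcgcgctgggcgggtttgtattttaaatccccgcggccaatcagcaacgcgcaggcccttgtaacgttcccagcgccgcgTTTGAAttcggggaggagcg
Mcm5, chr8:75109259-75109558, plus strand: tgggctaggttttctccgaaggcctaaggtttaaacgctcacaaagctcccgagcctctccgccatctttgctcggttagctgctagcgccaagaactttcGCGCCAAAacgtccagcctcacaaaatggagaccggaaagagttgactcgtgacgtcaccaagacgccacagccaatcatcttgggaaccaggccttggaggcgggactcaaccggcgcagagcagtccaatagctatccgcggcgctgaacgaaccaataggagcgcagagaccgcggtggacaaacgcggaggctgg
Mcm6, chr1:128359656-128359955, minus strand: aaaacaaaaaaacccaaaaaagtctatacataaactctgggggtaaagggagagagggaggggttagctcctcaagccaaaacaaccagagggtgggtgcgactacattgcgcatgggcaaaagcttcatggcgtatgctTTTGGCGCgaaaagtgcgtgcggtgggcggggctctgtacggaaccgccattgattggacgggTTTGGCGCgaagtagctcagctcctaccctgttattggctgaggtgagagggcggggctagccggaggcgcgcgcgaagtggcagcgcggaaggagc

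CHR letters were present in 8 of the 33 members' windows, against 17.9% of 32851 promoters. These were Aurka, Ccnb2, Cdk1, Mki67, Plk1 and Top2a (6 of the 8 mitotic members with a window) and the S-phase members E2f8 and Mcm2. E2F letters were in 5 of 33 windows against 1.56% of all promoters. All of these were S-phase members, namely Cdk2, Mcm3, Mcm5, Mcm6 and Mcm7. The E-box letters CACGTG, which clock factors bind, were in 6 windows (Cdk4, Cdk6, Cdkn2c, Gadd45b, Gadd45g and Tyms) against 7.15% of all promoters. A match describes the letters of the window and does not show binding.

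A 24-h rhythm was called for 25 of the 40 members under DRF and for 19 under NRF, where 48.2% and 48.7% of all tested genes were called. An exact rank test called 21 and 16, where it called 42.4% and 43.1% of all genes. The profile differed between regimens in clock time for 22 members (48.3% of all genes) and in time since feeding began for 19 (43.6% of all genes). Both shares are close to those of all genes, and the members divided by role. Clock-time differences were called for 11 of 15 S-phase members, 4 of 5 G1 members, 3 of 3 inhibitors and 4 of 6 growth-arrest members, and for 0 of 11 mitotic members (limma), none of which had an unadjusted p under 0.05 either. Feeding-time differences were called for 8 of the 11 mitotic members and 6 of the 15 S-phase members. A rhythm was called for only 4 of the 11 mitotic members in each regimen, so the lack of clock-time calls does not show a shared rhythm.

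**Figure D1:**
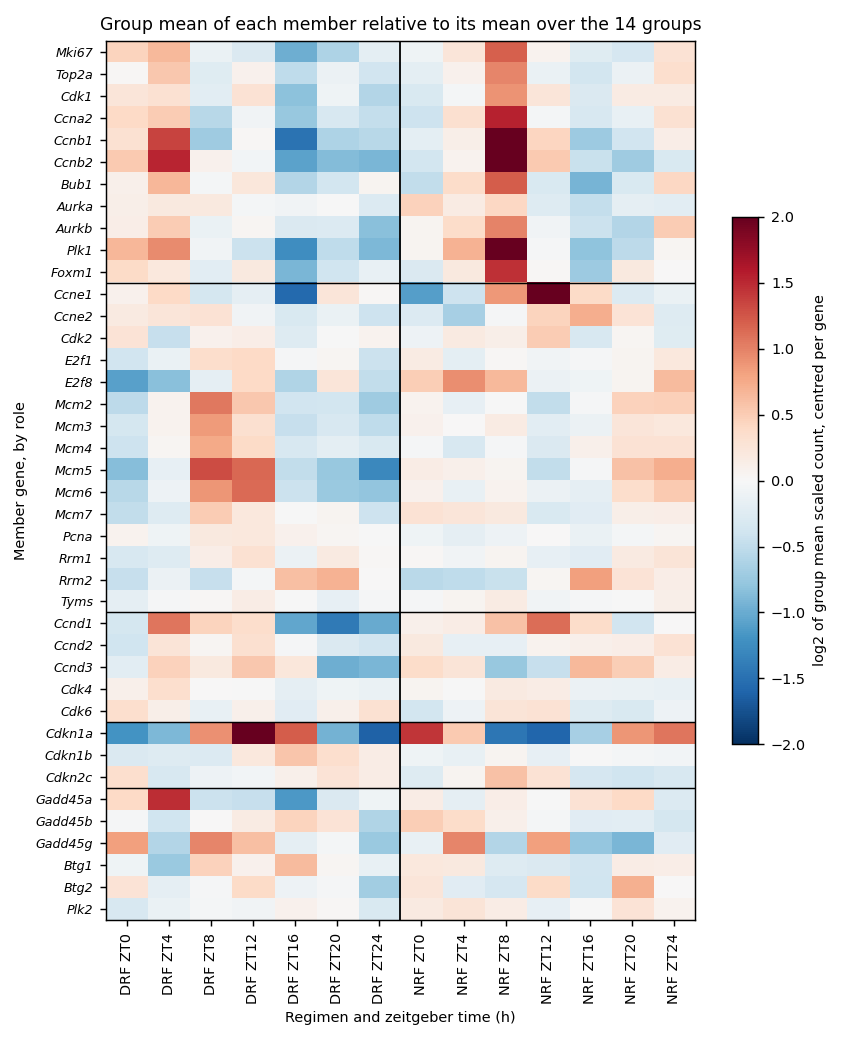
Group means of the 40 members (rows, by role) in the 14 groups (columns, DRF left of the line and NRF right), as log2 of the mean scaled count centred per gene and cut at 2 in either direction. In each regimen 10 of the 11 mitotic rows are highest at 1 time, ZT4 under DRF and ZT8 under NRF. Replicates 1 and 4 raise the NRF ZT8 means, with the median mitotic member 2.07 and 1.42 log2 units above its mean over all livers. In replicates 2 and 3 it stood at 0.25 and 0.09, against a mean of 0.13 over the NRF ZT4 livers. The MCM rows are highest at ZT8 or ZT12 under DRF and at ZT20, ZT24 or ZT0 under NRF, and Cdkn1a is high at ZT12 under DRF and at ZT0 under NRF.

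Among the mitotic members, Mki67, the proliferation marker (chr7:135689784-135716361), read 3.78, 3.41, 4.61 and 2.39 scaled counts in the 4 livers at its highest DRF time, ZT4, and 0.733, 1.67, 0.792 and 1.42 at its lowest, ZT16. Those groups did not overlap. Under NRF it read 10.2, 2.70, 2.25 and 5.67 at ZT8 and 1.35, 2.17, 2.24 and 1.40 at ZT20. Every ZT8 liver was above every ZT20 liver, but the closest were 2.25 and 2.24. Its amplitude was 0.69 ± 0.14 with a peak at ZT3.92 under DRF (adjusted p = 0.000779), and 0.54 ± 0.20 with a peak at ZT6.36 under NRF, which did not pass the test (adjusted p = 0.0673). The profiles did not pass the clock-time comparison (adjusted p = 0.267) and differed in feeding time (adjusted p = 0.000584).

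Ccnb2, a B-type cyclin that drives entry into mitosis, read 1.51, 0.891, 2.07 and 0.461 at DRF ZT4 and 0.156, 0.197, 0.227 and 0.239 at DRF ZT16, without overlap. At NRF ZT8 the livers read 3.41, 0.475, 0.532 and 2.50, with replicates 1 and 4 far above the others, and at NRF ZT20 they read 0.215, 0.212, 0.425 and 0.201. It was rhythmic in both regimens, with peaks at ZT5.44 ± 0.776 h and ZT8.41 ± 0.925 h. Plk1, a kinase of mitotic progression, was likewise rhythmic in both, with amplitudes of 0.65 ± 0.16 and 0.85 ± 0.21 and peaks at ZT4.14 and ZT6.73. It read 0.772, 0.945, 1.28 and 0.370 at DRF ZT4 against 4.42, 0.757, 0.477 and 2.08 at NRF ZT8, so the 2 groups overlapped. Ccnb1 was the third mitotic member called in both regimens, with peaks at ZT4.18 and ZT7.71. Aurka, a spindle kinase, was called under NRF (peak at ZT4.61, adjusted p = 0.00875) and did not pass the test under DRF (adjusted p = 0.283), and its clock-time difference was not called.

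Top2a, which untangles DNA, read 3.56, 3.56, 5.03 and 1.73 at DRF ZT4 and 8.78, 2.59, 2.39 and 5.03 at NRF ZT8. Its lowest groups read 0.956, 2.58, 1.18 and 2.0 at DRF ZT16 and 1.58, 1.40, 2.29 and 2.07 at NRF ZT16, so the DRF groups overlapped and the NRF groups did not. It passed neither rhythm test (adjusted p = 0.274 and 0.205). Cdk1, the mitotic kinase, read 1.21, 0.673, 1.48 and 0.618 at DRF ZT4 and 2.67, 0.587, 0.583 and 2.17 at NRF ZT8, with overlap, and passed neither test (adjusted p = 0.445 and 0.473). Ccna2, Bub1, Aurkb and Foxm1 also passed neither test. Across the 11 mitotic members, of which 4 were called rhythmic in each regimen, the fitted peaks fell between ZT3.14 and ZT6.59 under DRF. Under NRF they fell between ZT4.61 and ZT9.81. Among the lymphocyte markers, the B-cell markers Cd79a and Ms4a1 had fitted peaks at similar times. Cd79a was rhythmic with peaks at ZT4.33 under DRF and ZT6.00 under NRF (adjusted p = 0.00234 and 0.000305), and Ms4a1 was called under NRF (peak at ZT4.67, adjusted p = 9.77e-05) and not under DRF (peak at ZT4.00, adjusted p = 0.0856). Neither was called in clock time (adjusted p = 0.339 and 0.308). Of the other lymphocyte markers, Cd3e had fitted peaks at ZT1.83 under DRF and ZT6.74 under NRF. Those of Ptprc were at ZT15.7 and ZT19.7, and those of Nkg7 at ZT16.8 and ZT8.04. Only Cd3e under NRF was called (adjusted p = 0.0337). The hepatocyte marker Apoa1 was rhythmic in both regimens, with peaks at ZT4.61 and ZT6.97. Alb, Cps1 and Serpina1c had fitted peaks between ZT14.8 and ZT21.8. Of the 5 lymphocyte markers, 1 was rhythmic under DRF and 3 under NRF. Their summed level ran from 14.4 to 26.9 scaled counts under DRF and from 15.1 to 35 under NRF. The part of these cell types in the mitotic profiles was not tested. At ZT8, 6 of the 11 mitotic members were lower under DRF (9.02% of all genes were lower). They ran from Ccnb1 at -1.92 ± 0.41 to Top2a at -1.05 ± 0.38 in log2 units.

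The ZT8 difference rested on 2 libraries. The median mitotic member stood 2.07, 0.25, 0.09 and 1.42 log2 units above its mean over all livers in NRF ZT8 replicates 1 to 4. With replicates 1 and 4 left out, a choice made after the values were seen, 0 of the 6 differences at ZT8 were called (limma), and the rhythms of Ccnb1 and Ccnb2 under NRF no longer passed (adjusted p = 0.233 and 0.0812). In the same 2 libraries the summed endothelial markers were 468 and 450 scaled counts against 408 and 406 in replicates 2 and 3. The Kupffer cell markers were 735 and 611 against 599 and 578. For the other cell types examined the 2 pairs of libraries overlapped. Stellate markers were 669 and 676 against 749 and 664, erythroid markers 823 and 542 against 389 and 628, and lymphocyte markers 22.2 and 16.3 against 15.1 and 18.7. The part of these cell types in the result was not tested. With NRF ZT8 replicates 1 and 4 left out, feeding-time differences were called for 5 of the 11 mitotic members. Aurkb, Bub1 and Foxm1 were lost, and no mitotic member differed in clock time. The fitted NRF peak of Cdk1, which was not rhythmic, moved from ZT9.81 to ZT16.1, in the dark phase. Those of the other mitotic members lay between ZT4.06 (Top2a) and ZT8.74 (Ccnb2), in the light phase. Of these, only Aurka and Plk1 were called rhythmic under NRF in that fit.

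**Figure D2:**
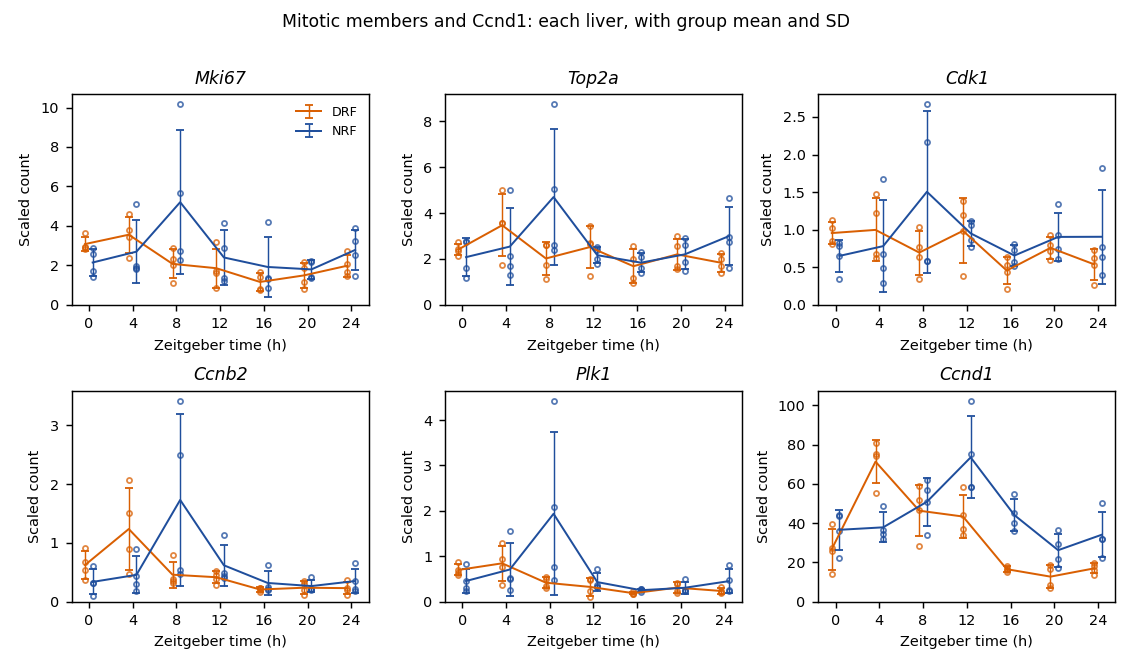
Scaled counts of 5 mitotic members and Ccnd1 (y axes from 0) at each zeitgeber time (x axis, h) under DRF (orange) and NRF (blue). Open circles are single livers, and lines with bars give the group mean and SD (n = 4). At NRF ZT8 replicates 1 and 4 stand well above replicates 2 and 3 of that group for the mitotic members. For Top2a, replicate 4 (5.03) is level with the highest livers at DRF ZT4 (5.03) and NRF ZT4 (5.02). Ccnd1 is highest at DRF ZT4 and NRF ZT12.

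The mitotic members also varied together from liver to liver. Over deviations from the 14 group means in 56 libraries, the median Pearson's r of their 55 pairs was 0.71 (lowest -0.16, highest 0.90), and that of the 15 pairs of MCM subunits was 0.83 (0.60 to 0.89), against 0.18 over all 780 pairs of members. These are descriptions, and the values share libraries and scaling.

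Ccnd1 (cyclin D1), which carries growth signals into G1, had the largest amplitude of the G1 members under DRF, while under NRF that of Ccnd3 was larger (0.60 ± 0.11). Ccnd1 read 74.0, 75, 81.1 and 55.3 scaled counts at DRF ZT4 and 16.8, 6.80, 8.67 and 18.6 at DRF ZT20. Under NRF it read 58.2, 75.1, 102 and 58.3 at ZT12 and 21.9, 36.4, 17.2 and 29.2 at ZT20. In each regimen the highest group did not overlap the lowest. Its peak was at ZT7.13 ± 0.408 h under DRF and ZT10.4 ± 0.806 h under NRF, with amplitudes of 1.21 ± 0.14 and 0.54 ± 0.10. The profiles differed in clock time (adjusted p = 0.00015) and in feeding time (adjusted p = 6.21e-09). Cdk4, its kinase partner, had peaks at ZT8.20 under NRF and ZT5.04 under DRF, and its clock-time difference was not called (adjusted p = 0.141). Up to 23.4% of the exon length of Ccnd1 overlaps a gene on the other strand, and 19.7% of that of Cdk4, so their counts are uncertain where strand was not used in counting.

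Ccnd2, Ccnd3 and Cdk6 had profiles with peaks 8.63 to 10.7 h apart. Ccnd3 read 43.2, 41.0, 39.5 and 51.2 at DRF ZT12 and 16.9, 16.4, 13.8 and 14.4 at DRF ZT20, and 46.1, 54.6, 42.3 and 46.1 at NRF ZT16 and 17.2, 15.4, 19.2 and 19.2 at NRF ZT8. These highest and lowest groups did not overlap in either regimen, but livers within other DRF groups lay far apart. Ccnd3 read 41.6, 11.5, 42.2 and 42.4 at DRF ZT8, near its fitted DRF peak of ZT9.75, and 53.2, 51.9, 15.4 and 46.5 at DRF ZT4. Its DRF rhythm lost its call under 1 alternative processing (limma, adjusted p = 0.0571). Ccnd2 read 8.41, 9.60, 9.80 and 11 at DRF ZT12 against 4.91, 5.94, 6.99 and 5.86 at DRF ZT0, and its NRF livers ran from 9.21 to 9.97 at ZT24 and from 6.88 to 7.00 at ZT8. Cdk6, the kinase paired with D-type cyclins, was highest at DRF ZT0 (159, 149, 140 and 152) and at NRF ZT12 (133, 138, 156 and 153), and lowest at DRF ZT16 (96.9, 106, 99.3 and 103) and NRF ZT0 (97.3, 91.1, 89.2 and 89.5). Clock-time differences had adjusted p = 1.71e-07 for Ccnd2, 9.45e-06 for Ccnd3 and 2.46e-08 for Cdk6. In feeding time the profile of Cdk6 differed (adjusted p = 0.00986), and those of Ccnd2 and Ccnd3 were not called (0.0812 and 0.663).

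All 6 MCM subunits, the helicase of DNA replication, were rhythmic under DRF and differed between regimens in clock time. Their DRF peaks fell between ZT8.51 and ZT11.5. Mcm5 (chr8:75109569-75128439) read 4.18, 11, 2.56 and 9.35 at DRF ZT8 and 1.02, 1.16, 1.32 and 1.01 at DRF ZT24, without overlap. Under NRF it read 5.80, 1.64, 5.71 and 4.94 at ZT24 and 1.92, 1.76, 2.92 and 1.18 at ZT12, and those groups overlapped. Its amplitude was 1.1 ± 0.14 with a peak at ZT9.90 under DRF and 0.39 ± 0.12 with a peak at ZT22.9 under NRF. The profiles differed in clock time (adjusted p = 2.47e-08) and in feeding time (adjusted p = 0.00677). Feeding-time differences were also called for Mcm3 (adjusted p = 0.0056) and Mcm6 (0.00473), and not for Mcm2, Mcm4 and Mcm7 (0.0917, 0.238 and 0.0679).

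Mcm2 and Mcm7 were, like Mcm5, highest at ZT8 under DRF and lowest at ZT12 under NRF. Mcm3 and Mcm4 were also highest at DRF ZT8, but at ZT20 under NRF, where neither rhythm passed (limma, adjusted p = 0.304 and 0.0626). Mcm2 read 2.64, 4.73, 1.82 and 5.22 at DRF ZT8 and 1.18, 1.07, 0.978 and 1.03 at DRF ZT24, and 2.83, 1.53, 2.57 and 2.77 at NRF ZT24 against 1.05, 1.13, 1.68 and 1.07 at NRF ZT12. Its NRF groups overlapped. Mcm7 read 5.27, 7.59, 4.58 and 6.84 at DRF ZT8 and 3.24, 2.52, 3.30 and 3.03 at DRF ZT0, with NRF livers between 4.35 and 6.13 at ZT0 and between 3.07 and 3.76 at ZT12. Mcm6 was highest at DRF ZT12 (18.5, 18.9, 7.62 and 22.3) and lowest at DRF ZT24 (3.83, 4.78, 3.97 and 5.16), without overlap. At NRF ZT24 it read 16.2, 4.96, 13.6 and 9.11 and at NRF ZT16 4.55, 5.12, 8.56 and 8.80, which overlapped, and its NRF rhythm did not pass (adjusted p = 0.285). Under NRF, rhythms were called for Mcm2, Mcm5 and Mcm7. DRF ZT8 replicates 2 and 4 stood highest, with the median MCM subunit 1.33 and 1.40 log2 units above its mean over all livers, against 0.45 and -0.07 in replicates 1 and 3. With replicates 2 and 4 left out, a choice made after the values were seen, all 22 members that differed in clock time were still called, whereas the ZT8 differences of Mcm2 and Mcm5 were not. In feeding time the call of Mcm3 was lost (limma, adjusted p = 0.0597), and Mcm5 and Mcm6 were still called (0.0487 and 0.032). Aurkb and Bub1 also lost their feeding-time calls, and Ccnd2 gained one.

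Both E-type cyclins, which open S phase, had their highest group mean under NRF. Ccne1 read 1.14, 1.30, 1.73 and 1.63 at NRF ZT12 and 0.144, 0.0691, 0.213 and 0.249 at NRF ZT0. Under DRF it read 0.408, 0.606, 0.671 and 0.210 at ZT4 and 0.115, 0.248, 0.0562 and 0.0751 at ZT16. The NRF groups lay far apart and the DRF groups overlapped. Its amplitude was 0.95 ± 0.13 under NRF and 0.43 ± 0.13 under DRF, with peaks 9.23 h apart, and the profiles differed in clock time (adjusted p = 1.57e-07) and feeding time (adjusted p = 0.00753). Ccne2 was called under NRF (amplitude 0.62 ± 0.07, peak at ZT15.3) and did not pass under DRF (adjusted p = 0.0634), and differed in clock time (adjusted p = 1.46e-07) and feeding time (adjusted p = 0.00167). Ccne2 read 5.34, 3.73, 6.28 and 4.87 at NRF ZT16 and 1.41, 2.0, 1.9 and 2.43 at NRF ZT4, with 17.4% of its exon length shared with a gene on the other strand.

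**Figure D3:**
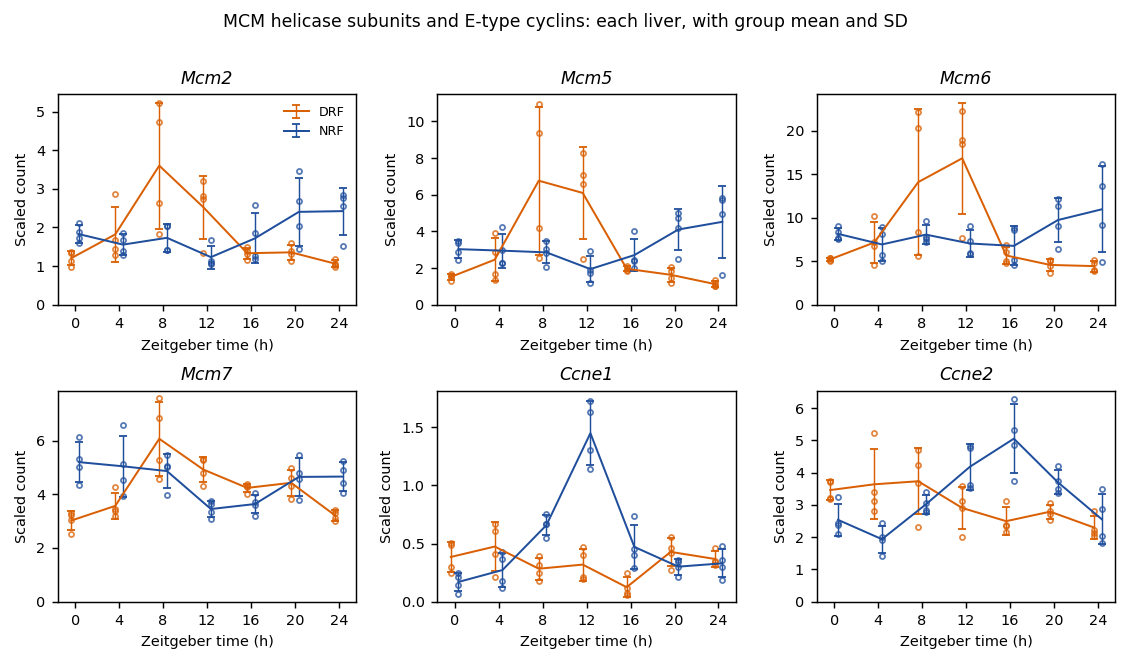
Scaled counts of 4 MCM subunits and both E-type cyclins (y axes from 0) at each zeitgeber time (x axis, h) under DRF (orange) and NRF (blue), with single livers as open circles and group mean and SD as lines with bars (n = 4). The MCM subunits are highest at DRF ZT8 to ZT12, where replicates 2 and 4 of ZT8 lead, and Ccne1 is highest at NRF ZT12.

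Rrm2, a subunit of the enzyme that makes deoxynucleotides, kept its clock time, with peaks at ZT17.6 ± 0.645 h under DRF and ZT16.8 ± 0.771 h under NRF, both in the dark phase (feeding-time adjusted p = 3.49e-06). It was the 1 S-phase member rhythmic in both regimens with a shift of up to 4 h. E2f8, a transcriptional repressor of E2F targets, had peaks at ZT14.0 and ZT3.83. It read 2.09, 3.76, 2.11 and 4.74 at DRF ZT12 and 1.07, 1.05, 0.928 and 1.51 at DRF ZT0, and 3.44, 1.53, 8.79 and 4.72 at NRF ZT4 against 2.21, 2.79, 2.60 and 1.37 at NRF ZT12, with overlap under NRF only. Leaving out any of 8 libraries singly ended its DRF call and any of 17 its NRF call, with adjusted p up to 0.108. E2f1 was called under DRF, and Pcna, Rrm1, Tyms and Cdk2 passed neither rhythm test.

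Of the inhibitors, Cdkn1a had the largest rhythm of all members in both regimens. Its 4 livers read 4.38, 6.30, 4.44 and 4.93 scaled counts at DRF ZT12 and 0.359, 0.328, 0.351 and 0.300 at NRF ZT12. At ZT0 the NRF livers read 1.87, 2.92, 1.47 and 4.60, and at ZT24 the DRF livers read 0.267, 0.332, 0.333 and 0.384. These groups did not overlap. The fitted peak-to-trough fold was 9.13 under DRF (peak at ZT12.0) and 6.59 under NRF (peak at ZT23.4), 11.4 ± 0.578 h apart. The profiles differed in clock time (adjusted p = 3.89e-17) and were not called in feeding time (adjusted p = 0.41). At ZT12 Cdkn1a was 3.54 ± 0.39 log2 units higher under DRF, the largest single-time difference among the members called at ZT12.

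Cdkn2c read 3.54, 2.71, 4.04 and 3.39 at DRF ZT0 and 2.47, 2.04, 2.39 and 1.79 at DRF ZT4, and 4.88, 3.68, 3.34 and 4.48 at NRF ZT8 and 1.92, 2.05, 2.34 and 1.92 at NRF ZT20. No peak group overlapped its trough group. Its peaks were 11.4 ± 0.998 h apart (clock-time adjusted p = 1.71e-08). Cdkn1b, which holds cells in quiescence, was called under DRF (amplitude 0.41 ± 0.07, peak at ZT16.8) and was nearly flat under NRF (amplitude 0.01 ± 0.05), and the profiles differed in both clock and feeding time (adjusted p = 0.00106 and 0.000733).

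**Figure D4:**
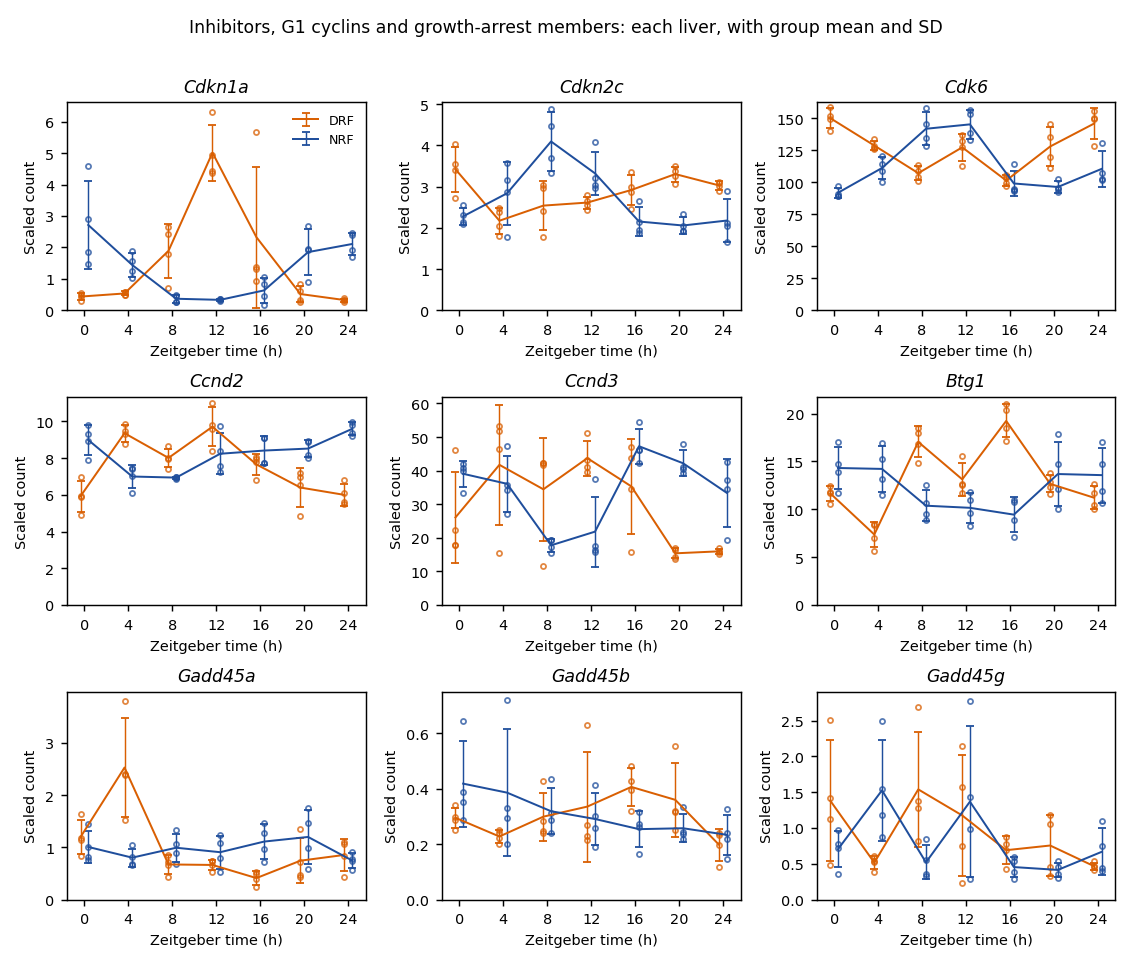
Scaled counts of 2 kinase inhibitors, 3 G1 members and 4 growth-arrest members (y axes from 0) at each zeitgeber time (x axis, h) under DRF (orange) and NRF (blue), with single livers as open circles and group mean and SD as lines with bars (n = 4). Cdkn1a is highest at DRF ZT12, where NRF is lowest, and Gadd45a is highest at DRF ZT4.

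Among the growth-arrest members, Btg1, an antiproliferative gene, read 21.0, 17.2, 18.5 and 20.3 at DRF ZT16 and 5.60, 8.51, 7.04 and 8.31 at DRF ZT4, and 13.9, 14.8, 11.7 and 17.0 at NRF ZT0 and 7.11, 8.86, 10.8 and 11 at NRF ZT16. Peaks and troughs did not overlap, and the fitted peaks were 10.1 ± 1.23 h apart (adjusted p = 1.86e-06). Gadd45a, induced by stress and DNA damage, read 2.40, 3.81, 2.38 and 1.53 at DRF ZT4 and 0.240, 0.390, 0.524 and 0.490 at DRF ZT16. Under NRF it ranged only from 0.519 to 1.76 over all 28 livers, and no rhythm passed (adjusted p = 0.398). The difference between profiles was called in clock time (adjusted p = 0.000119) and in feeding time (adjusted p = 0.0161), and 19.1% of its exon length is shared with a gene on the other strand.

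Gadd45b, a relative of Gadd45a, was called under DRF (amplitude 0.29 ± 0.09), with livers between 0.319 and 0.483 at ZT16 and between 0.116 and 0.239 at ZT24. Under NRF it did not pass (adjusted p = 0.361). Gadd45g read 0.817, 1.27, 2.70 and 1.37 at DRF ZT8 and 0.872, 1.19, 1.55 and 2.50 at NRF ZT4, with livers between 0.308 and 0.536 at both NRF ZT20 and DRF ZT24, and passed neither rhythm test. Btg2 and Plk2 passed neither test, and the clock-time difference of Plk2 was called (adjusted p = 0.00667).

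In all, 17 members were dual-oscillating, that is, called in both regimens (29.4% of all genes were). Of these, 6 had peaks up to 4 h apart (Ccnb1, Ccnb2, Plk1, Rrm2, Ccnd1 and Cdk4) and 11 had peaks at least 8 h apart, so none fell between. Among all dual-oscillating genes, 23.2% were within 4 h and 51.6% at 8 h or more, against 35.3% and 64.7% of the members.

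**Figure D5:**
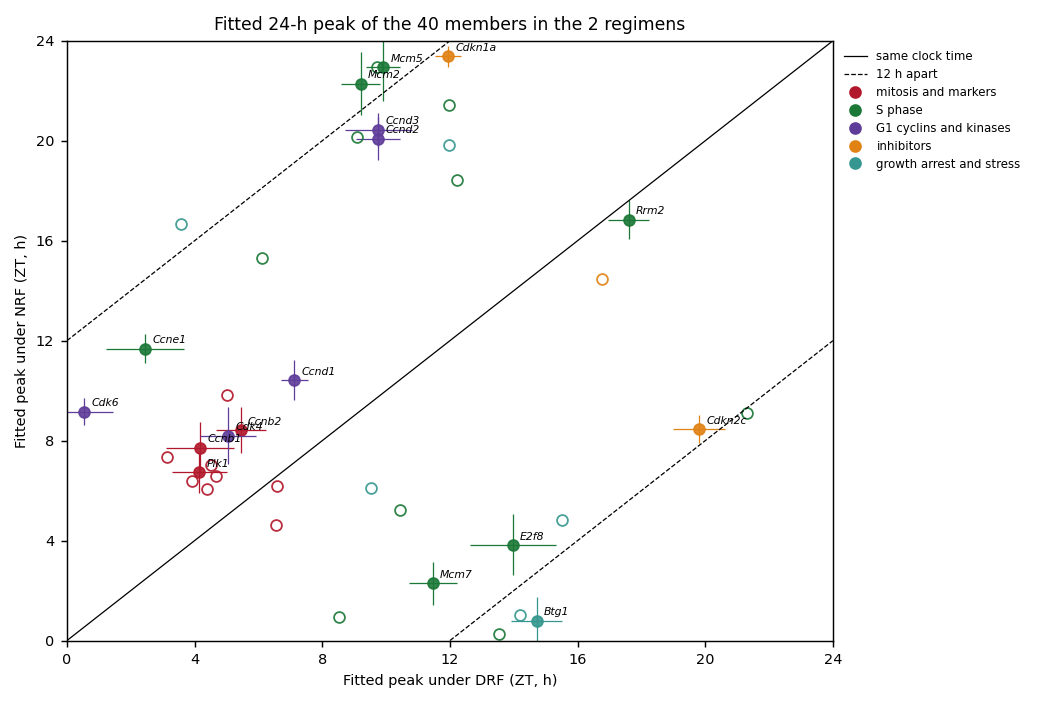
Fitted 24-h peak of each member under DRF (x axis, ZT in h) and NRF (y axis, ZT in h), coloured by role. Filled points with SE bars and names are rhythmic in both regimens, the solid line marks the same clock time and the dashed lines a 12 h shift. The mitotic points lie closer to the solid line than to the dashed lines, and Cdkn1a, Mcm5, Cdkn2c and Btg1 near the dashed lines.

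The rhythm-adjusted mean differed for 5 members (8.73% of all genes), 1 higher under DRF (5.53%) and 4 lower (3.2%). Markers of other cells moved in the same comparison. Of the erythroid markers 3 of 4 had a higher mean under DRF (Hba-a1 by 0.57, Hbb-bs by 0.45 and Alas2 by 0.36 log2 units), with a summed level of 375 to 1325 scaled counts under DRF and 299 to 823 under NRF. Of 4 hepatocyte markers, Cps1 was higher, and Apoa1 and Serpina1c were lower. Their part in the differences of the members was not tested. Ccnd1 was lower by 0.58 ± 0.13 log2 units (adjusted p = 0.00115), E2f8 by 0.57 ± 0.14, Ccne1 by 0.51 ± 0.14 and Plk2 by 0.18 ± 0.06. Pcna, the sliding clamp of replication, was higher by 0.16 ± 0.04 (adjusted p = 0.0061), with 28 DRF livers between 6.67 and 9.57 (median 8.03) and 28 NRF livers between 5.70 and 9.89 (median 7.12), which overlapped. For Plk2, a stress-responsive kinase, the DRF livers ran from 1.61 to 3.44 (median 2.61) and the NRF livers from 2.35 to 4.08 (median 3.0), with wide overlap. Leaving out any of 22 libraries singly ended the Plk2 call, with adjusted p up to 0.0726. Cdk6 had the sixth smallest p and did not pass (0.11 ± 0.04, adjusted p = 0.126). No mitotic member differed in mean (limma), and none had an unadjusted p under 0.05.

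At single times, 30 of the 40 members differed at 1 time or more, against 57.2% of all genes. At ZT0, 8 differed (20.6% of all genes), 3 higher (10.3%) and 5 lower (10.3%) under DRF. At ZT4, 13 differed (26.1%), 7 higher (14.1%) and 6 lower (11.9%), with Gadd45a higher by 1.49 ± 0.31 log2 units. At ZT8, 14 differed (16.8%), 5 higher (7.8%) and 9 lower (9.02%), the mitotic members among the lower. At ZT12, 10 differed (20.4%), 8 higher (9.64%) and 2 lower (10.8%), the E-type cyclins being the lower pair. At ZT16, 7 differed (20.1%), 3 higher (12.1%) and 4 lower (7.99%). At ZT20, 10 differed (18.4%), 2 higher (10.6%) and 8 lower (7.84%). At ZT24, 13 differed (18.8%), 2 higher (9.48%) and 11 lower (9.28%), and Cdk6 and Cdkn2c were the higher pair at both ZT20 and ZT24. At ZT12 the MCM subunits Mcm2, Mcm4, Mcm5, Mcm6 and Mcm7 were higher under DRF, from 0.50 ± 0.13 for Mcm7 to 1.54 ± 0.36 for Mcm5, and at ZT24 Mcm2, Mcm3, Mcm5, Mcm6 and Mcm7 were lower. Cdkn1a differed at all 7 times, lower under DRF at ZT0, ZT4, ZT20 and ZT24 and higher at ZT8, ZT12 and ZT16. As a check, ZT24 was set against ZT0, which close the same cycle. Only Btg2 differed under DRF (4.56% of all genes), and Aurka and Cdk6 under NRF (10.8% of all genes).

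In a wider list of cell cycle genes, 52 of 54 were tested. Rhythms were called for 34 under DRF (65.4%, against 48.2% of all genes) and 30 under NRF (57.7%, against 48.7%). Profiles differed in clock time for 28 (53.8%, against 48.3%) and in feeding time for 24 (46.2%, against 43.6%). Wee1, the kinase that holds back Cdk1, had amplitudes of 1.33 ± 0.06 and 1.60 ± 0.10 with peaks at ZT2.85 and ZT14.0, 11.2 ± 0.304 h apart. Cdc20, an activator of mitotic exit, peaked at ZT4.53 and ZT7.44 (clock-time adjusted p = 0.167). Unlike the 11 mitotic members, some other genes of mitosis in this list differed in clock time. These were Birc5 (adjusted p = 0.00193), which acts in chromosome segregation, Bub1b (0.0298), of the spindle checkpoint, Ube2c (0.0273), which serves mitotic exit, and Ccnf (0.0065), cyclin F. Anln, Cenpe, Cenpf, Kif11, Kif20a, Mad2l1, Nusap1, Prc1, Tpx2 and Ttk were not called (adjusted p from 0.0646 to 0.844). In feeding time Bub1b (adjusted p = 0.000716), Ube2c (0.000641) and Ccnf (0.0489) were called as well, and Birc5 was not (0.207). The fitted peaks of Bub1b and Ube2c were 3.94 and 3.83 h apart, and those of Birc5 and Ccnf lay further apart. Wee1, Cdc20 and these genes were named after their values were seen. Of 10 p53 targets, 5 differed in clock time and 5 in feeding time, against 48.3% and 43.6% of all genes.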

How the data were processed

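Total RNA from 56 livers was ribosome-depleted and sequenced as strand-specific paired reads per the protocol text of the labels (the molecule field says polyA). The submitters' processing notes name CASAVA 1.8 and featureCounts 1.5.0-p3 and builds mm10 and GRCm38.p6. Which aligner was used, and whether counting used strand, is not given in the sources used here. The authors deposited a gene table named TPM whose values are treated as a score, since value times exon length followed a logarithm of a whole count. Counts were rebuilt from it, and 92.4 to 99.0% of held-out values were within 0.05 of whole. All 40 members were rebuilt with the annotated length. Columns left unassigned numbered 0. Scaled counts were tested as log2(scaled count + 0.1), for genes with a mean of at least 0.1, with limma 3.58.1 (trend, R 4.3.3), tested on simulated data. Figures and rank tests used Python 3.11.15. Transcript and circular RNA tables were not used. Members and lists were chosen with earlier results of these data known. Values per liver are given for 8 members fixed by name, the 12 with the smallest p for the clock-time difference and the 6 with the smallest p for the mean, and for Ccnb2 and Plk1, chosen after their values were seen.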

Additional observations from a re-analysis of the deposited data

Results flagged for a closer look

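Of 96 groups of 4 livers examined (the highest and lowest group of each member with values per liver), 4 held a liver far from the other three, where chance gives about 1 group in 20. These were the highest Mcm2 value at NRF ZT12 (1.68 scaled counts), the highest Ccnb2 value at NRF ZT20 (0.425) and the lowest Plk2 values at DRF ZT0 (1.61) and NRF ZT20 (2.70). The 24-h profile of 22 members differed between the regimens in clock time by the test of the difference itself.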

How the results depend on the processing

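The 22 clock-time differences numbered 22 or 23 under every alternative tried except a mean of at least 1, which tests fewer members and called 19. That filter gave 11 feeding-time differences and 9 differences at ZT8. Values as deposited gave 3 differences in mean, 9 at ZT8, and 4 (DRF) and 6 (NRF) between ZT0 and ZT24, and removing the exon-length trend gave 1 between ZT0 and ZT24 under NRF. Without NRF ZT8 replicates 1 and 4, 3 members differed at ZT8 and 2 between ZT0 and ZT24 under DRF. The exact rank test called 21 members under DRF and 16 under NRF, and its combination with the cosine test, which reads the same values, 28 and 21. Apart from these, no count moved by over 1.5 times, and the cause of these changes was not tested. Leaving out 1 library at a time gave 22 to 29 rhythmic members under DRF, 16 to 25 under NRF, 17 to 22 feeding-time differences, 4 to 5 in mean, 8 to 16 at ZT8, 8 to 16 at ZT24, and 0 to 2 between ZT0 and ZT24 in each regimen. The count at ZT8 was 8 without NRF ZT8 replicate 1 and 9 without replicate 4, and that at ZT24 was 8 without DRF ZT24 replicate 1 or 3 or NRF ZT24 replicate 3. The ZT0 against ZT24 calls were lost without DRF ZT0 replicate 3 or 4 or DRF ZT24 replicate 3 or 4 (Btg2), and in NRF fell to 0 without ZT0 replicate 2 or 3 or ZT24 replicate 4 and to 1 without ZT0 replicate 4 or ZT24 replicate 3. Besides E2f8 and Plk2, rhythm calls were ended by single libraries for Mcm5 under NRF (any of 6, adjusted p up to 0.0847), Cdk4 under NRF (5, 0.0646), Ccnb1 under DRF (3, 0.0563) and NRF (ZT8 replicates 1 and 4, 0.0634), Ccne1 under DRF (ZT16 replicates 1, 3 and 4, 0.0693), Gadd45b (DRF ZT16 replicates 1 and 4, 0.0615), Mcm2 under NRF (ZT12 replicates 1 and 4, 0.0515) and E2f1 (DRF ZT12 replicate 4, 0.0760). The single-member results called in the main analysis numbered 49 and gave 3223 recomputed values. Of these values, 3130 kept the call and 93 lost it, and 15 of the 49 results lost it in some setting. An amplitude cannot change sign, so a reversal could show only for the differences in mean, and 0 reversed.

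Replicate numbers are shared between groups but mark different animals. Deviations of same-numbered livers had a mean r of 0.0053 and only 19 of 56 libraries were closest to their own number, so nothing was paired. With the replicate block, 25 members were rhythmic under DRF, 18 under NRF, 22 differed in clock time, 18 in feeding time and 5 in mean.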
